A study of Mus musculus with 21 samples.

Results

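The lateral subventricular zone (SVZ), the germinal layer along the lateral wall of the mouse forebrain ventricles, was compared at postnatal day 6 (P6) with postnatal day 1 (P1) for its microRNAs. Libraries were taken by their labelled tissue and age, 3 at each age, which makes 6 of the 21 small RNA libraries of the series. Of the 45633 features in the deposited table, the 1445 of RNA type miRNA were read, 559 hairpins and 886 mature forms. All tissue was dissected from brains of CD1 mice, and the labels give strain, age and tissue as the only descriptors of an animal. Whether each replicate came from its own animals is not stated, so p-values measure only the spread between these samples. The dorsal SVZ at the same ages (3 libraries each) served as a comparison. Levels elsewhere on the route come from the rostral migratory stream (RMS), with 1 library at P15 and 2 at P28, and from the olfactory bulb (OB), with 3 libraries at each of these ages. The series asks how small RNAs change in time and space along this route.

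Stem cells of the postnatal SVZ produce young neurons that migrate through the RMS to the OB, and the lateral wall mainly feeds the granule cells of the bulb. In the days after birth some radial glia of this wall become ependymal cells, which line the ventricle and carry many motile cilia. A microRNA is cut from a hairpin, usually with 1 abundant arm and a rarer star arm, and represses messenger RNAs that pair with its seed, bases 2 to 8.

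Mature sequences are shown for the families that the results turn on, in RefSeq's form (GRCm38.p6 tables), with the seed in capitals. RefSeq forms were matched to 196 of 580 tested mature forms, 118 by the same name and 78 through the arm that an older name stands for. The first set rose from P1 to P6, and its members miR-34a, miR-34b-5p, miR-449a and miR-449c share the seed GGCAGUG, while miR-34b-3p and miR-34c* share AUCACUA. miR-34c is named only.
miR-34a: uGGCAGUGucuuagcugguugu
miR-34b-5p: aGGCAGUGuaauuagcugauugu
miR-449a: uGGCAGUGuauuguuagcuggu
miR-449c: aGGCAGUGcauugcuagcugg
miR-34b-3p: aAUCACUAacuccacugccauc
miR-34c*: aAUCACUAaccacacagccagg

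The second set also rose, and holds the pair with the seed AACAGUC and the trio with the seed AGCACCA.
miR-132: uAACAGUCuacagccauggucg
miR-212-3p: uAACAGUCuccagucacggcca
miR-29a: uAGCACCAucugaaaucgguua
miR-29b: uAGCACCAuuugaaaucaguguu
miR-29c: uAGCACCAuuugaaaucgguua

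The last set holds the forms of the miR-17 to miR-92 clusters and of the related miR-130 and miR-301 forms described among the falling microRNAs, in 4 seed groups. miR-93 and miR-130a did not pass the test and are shown because they carry the seeds of members that did. Other forms with these seeds are not shown. One of them, miR-92b, carries the seed of miR-25 and miR-92a and had a positive log2 fold change (0.56), which did not pass.
miR-17: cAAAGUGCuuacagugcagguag
miR-20a: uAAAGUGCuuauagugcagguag
miR-106b: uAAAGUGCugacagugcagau
miR-93: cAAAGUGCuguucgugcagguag
miR-25: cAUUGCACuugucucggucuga
miR-92a: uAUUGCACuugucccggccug
miR-19a: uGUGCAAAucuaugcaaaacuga
miR-19b: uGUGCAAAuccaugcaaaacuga
miR-130b: cAGUGCAAugaugaaagggcau
miR-301a: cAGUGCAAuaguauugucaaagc
miR-130a: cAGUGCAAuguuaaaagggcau
Several of these sequences differ at few positions, so reads of close family members may have been shared between them.

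Values are normalized read counts rounded to whole numbers, called scores here. They carry no unit and their read depth is unknown. The scores appear to follow a common distribution times 1 factor per library, and the exact normalization is not stated. Near-equal scores of replicates below can therefore reflect equal ranks, which cannot be told apart from equal measured levels. Standard errors of such features may be too small for the same reason. Of the 1445 features, 241 were at 0 in all 6 lateral libraries and 638 were too low to test (a score of at least 10 in at least 3 of the 21 libraries was required). The other 807 were tested with limma on log2(score + 1), which understates changes of low features. Fold changes are given on that scale as estimate ± SE, with p-values adjusted by the Benjamini-Hochberg method over all 807, and a feature passed under 0.05. At P6, 116 features (14.4%) were higher and 17 (2.11%) lower, and 232 had an unadjusted p under 0.05. Libraries of the 2 ages did not overlap for 26.6% of features with higher values at P6 and for 6.57% with lower values. Of the passing features, 102 rose and 11 fell at least 2-fold. The number of rises was 70 without lateral P1 replicate 1, 65 without lateral P1 replicate 3 and 52 without lateral P6 replicate 2. The number of falls was 11 without lateral P1 replicate 2, 11 without lateral P1 replicate 3 and 9 without lateral P6 replicate 2. Over all tested features the median log2 fold change was 0.42 as deposited, 0.10 after rescaling with TMM factors and -0.18 relative to the median miRNA feature. The split of calls moved with it, to 74 higher (9.17%) and 46 lower (5.7%) with TMM factors and to 46 higher (5.7%) and 100 lower (12.4%) relative to the median feature. Values below are as deposited unless another scale is named.

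**Figure D1:**
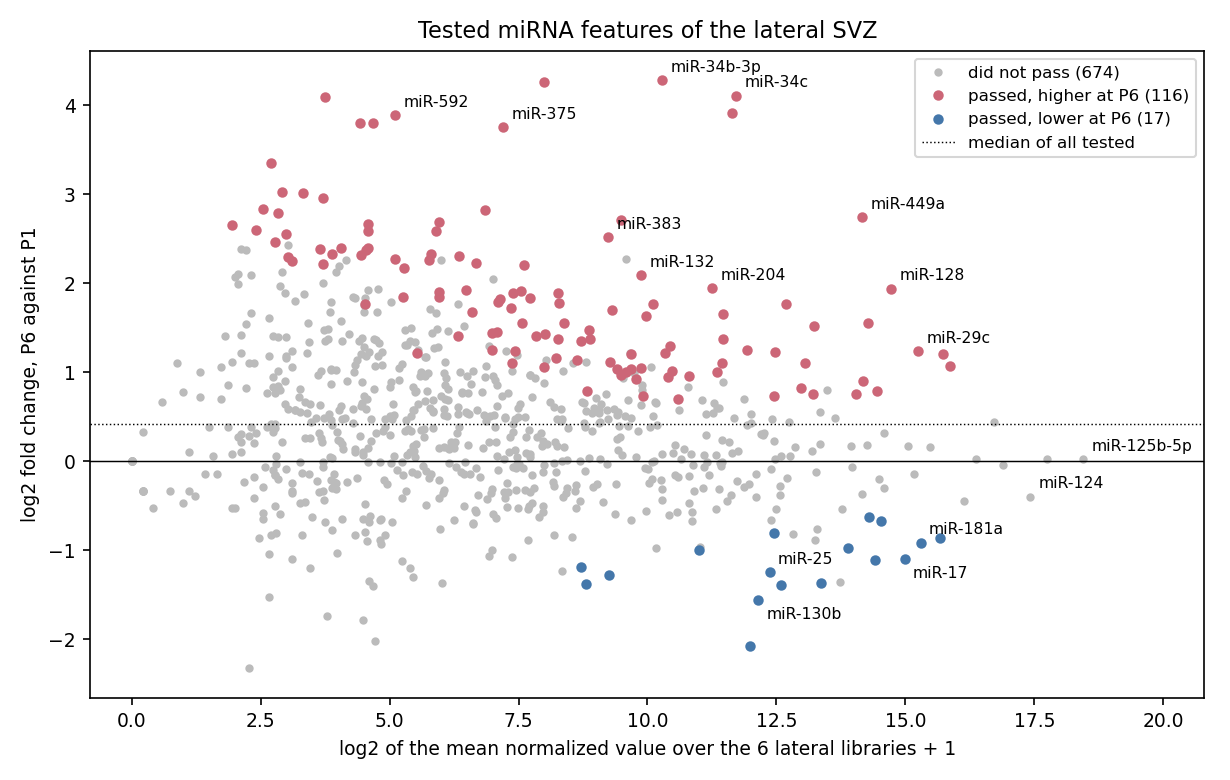
Each point is 1 of the 807 tested features, placed by the log2 of its mean score over the 6 lateral libraries (horizontal) and its log2 fold change from P1 to P6 (vertical). The 116 rises reach 4.28 for miR-34b-3p, and the dotted line marks the median of 0.42, which is -0.18 relative to the median feature.

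Markers of other cells that a dissection can hold were read first. The summed score of the choroid plexus markers miR-204 and miR-211 was 772 to 1466 over the P1 libraries and 3498 to 4182 at P6. Of their 3 features 1 was higher (33.3%, against 14.4% over all features). The summed score of microglia and leukocyte microRNAs was 732 to 1317 and 1348 to 2589. Of their 8 features 3 were higher (37.5%, against 14.4% over all features). These were miR-150 (1.04 ± 0.28), miR-155 (1.91 ± 0.56) and miR-146a (1.21 ± 0.42). Each lost its call when some single library was left out, and the count was 0 without lateral P1 replicate 1, 2 without lateral P1 replicate 2 or lateral P6 replicate 3, and 1 without any other. Muscle markers summed to 0 to 5 at P1 and 6 to 31 at P6. Their 1 call of 3 (33.3%, against 14.4% over all features) was miR-1. It was listed at 0 in all P1 libraries and at 5, 7 and 21 at P6.

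Oligodendrocyte microRNAs overlapped between the ages in their summed score (1038 to 1926 against 1883 to 2284). Of their 8 features 1 passed (12.5%, near the 14.4% of all features). This was miR-338-3p, with 657, 879 and 369 at P1 and 1159, 1408 and 1152 at P6 (1.05 ± 0.27, adjusted p = 0.0113). It did not pass without lateral P1 replicate 3 (adjusted p = 0.0965) or lateral P6 replicate 2 (0.0626), nor relative to the median feature (0.45, adjusted p = 0.22). With lateral P1 replicate 2 or lateral P6 replicate 1 left out, 2 of the 8 passed. None of the 7 erythroid, 8 endothelial and mural, 4 mesenchymal and meningeal and 1 Hox cluster features passed in limma's test, none had an unadjusted p under 0.05, and their sums overlapped. The Hox list, which marks tissue from behind the forebrain, summed to 0 to 6 in every lateral library. The microRNA share of the total score was 77.2% ± 3.74 at P1 and 80.7% ± 0.968 at P6 (SD, n = 3 each; exact two-sided permutation p = 0.2, where 0.1 is the smallest possible). The part of the choroid plexus, microglia, leukocyte and muscle RNA in the results below was not tested. In bulk tissue fewer cells of a type and less RNA per cell cannot be told apart.

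Mature forms of miR-34b and miR-34c rose by 3.91 to 4.28 on the log2 scale, and those of the related miR-449a and miR-449c by 2.74 and 2.71. These families are known for their abundance in multiciliated cells and for their need in forming motile cilia. Of the 13 features of miR-34b, miR-34c and miR-449a, b and c, 10 (76.9%) were higher at P6 and none was lower. Over all features 14.4% were higher and 2.11% lower. The median log2 fold change of the 13 was 2.74 against 0.42 over all features. With TMM factors 8 of them rose and relative to the median feature 6, where 9.17% and 5.7% of all features were higher. The count was 6 without lateral P1 replicate 3 and 6 without lateral P6 replicate 1, and 7 to 9 without any other lateral library. Choroid plexus epithelium also carries motile cilia, and its marker miR-204 rose in the same libraries (1.95 ± 0.25). Together the mature forms of miR-34 and miR-449 took 0.281% ± 0.0368 of the microRNA score at P1 and 2.00% ± 0.315 at P6 (SD, n = 3 each).

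miR-34c had scores of 372, 379 and 356 at P1 and 6645, 6287 and 6189 at P6. The replicates of each age lay close together and far from those of the other, a rise of 4.11 ± 0.35 on the log2 scale or 17.2-fold (adjusted p = 5.07e-08). Its hairpin partner miR-34c* had 25, 19 and 29 at P1 and 428, 610 and 418 at P6 (4.26 ± 0.60, adjusted p = 5.84e-05). Both arms of this hairpin thus rose by amounts that differ by less than their errors.

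The neighbouring gene gave the same picture on both arms. miR-34b-5p had 472, 382 and 317 at P1 and 5540, 4520 and 7793 at P6 (3.91 ± 0.44, adjusted p = 2.5e-06). miR-34b-3p, from the opposite arm, had 122, 158 and 92 at P1 and 2288, 2554 and 2283 at P6 (4.28 ± 0.42, adjusted p = 3.44e-07). In neither did a P6 library come near a P1 library. With their hairpins, all 6 features of the 2 neighbouring miR-34b and miR-34c genes passed, although pre-mir-34b (3.80 ± 0.98) and pre-mir-34c (2.66 ± 0.74) had scores of 11 or less at P1. pre-mir-34b did not pass without lateral P1 replicate 3 (adjusted p = 0.0767), and pre-mir-34c did not without lateral P1 replicate 3 (0.0687), lateral P6 replicate 1 (0.0708) or lateral P6 replicate 2 (0.0574).

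miR-449a, which is transcribed from an intron of the ciliary cell gene Cdc20b, had the highest scores of the family. It had 5183, 4269 and 4784 at P1 and 37465, 25107 and 33691 at P6 (2.74 ± 0.40 or 6.69-fold, adjusted p = 5.91e-05). Its star arm did not follow. miR-449a* had 237, 379 and 202 at P1 and 220, 458 and 282 at P6, with overlapping ages (0.21 ± 0.66, adjusted p = 0.889), and with TMM factors its sign was negative (-0.14). miR-449c had 158, 203 and 195 at P1 and 1432, 856 and 1438 at P6 (2.71 ± 0.75, adjusted p = 0.0158). Although its ages were far apart, it did not pass without lateral P1 replicate 1 (adjusted p = 0.0554), lateral P6 replicate 1 (0.0527) or lateral P6 replicate 3 (0.0501), nor relative to the median feature (0.0623).

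miR-34a, a p53 target encoded by a separate gene and not in the ciliated cell list, rose less. It had 463, 786 and 333 at P1 and 1688, 1650 and 1716 at P6 (1.76 ± 0.27, adjusted p = 8.69e-05). The 3 P1 libraries varied over more than a doubling, and the P6 libraries almost not at all. Among the tested forms with a matched RefSeq sequence, all 4 with the seed GGCAGUG and both with AUCACUA were higher at P6.

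**Figure D2:**
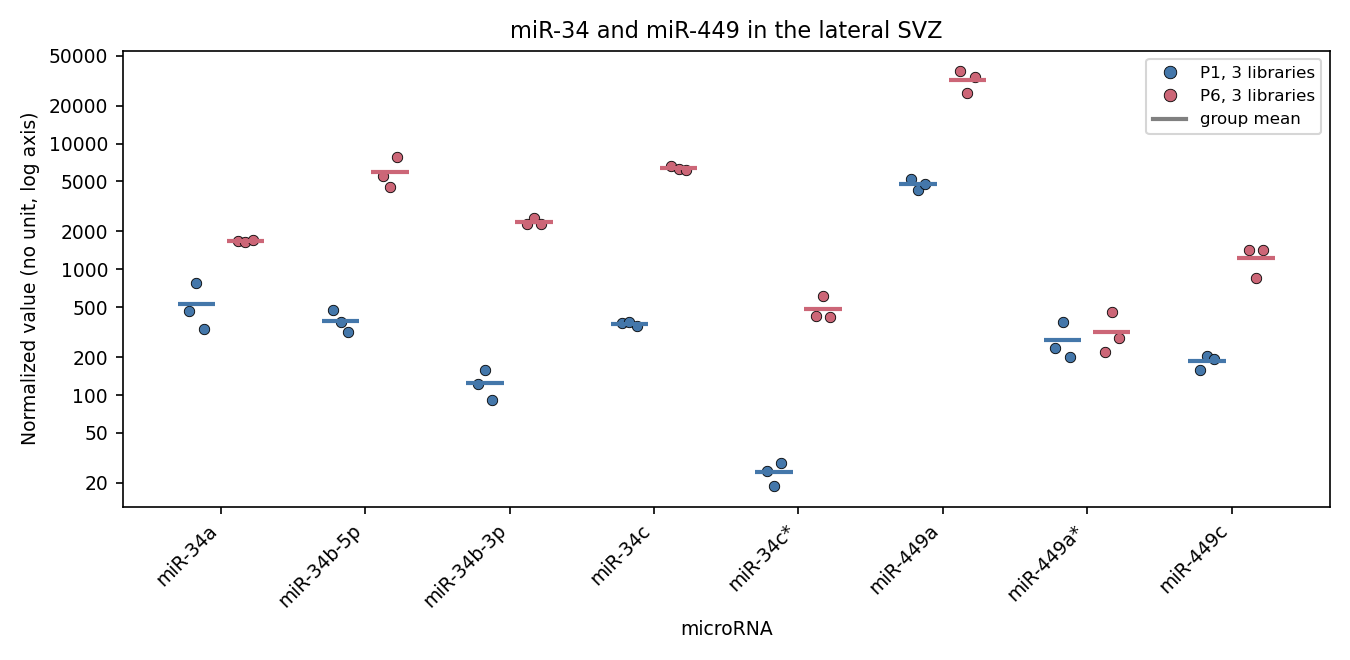
Scores of 8 mature forms of miR-34 and miR-449 (vertical, log axis) in each of the 3 lateral libraries of P1 and P6, with the group mean as a bar. The ages are apart in every form except miR-449a*, whose points overlap.

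Levels of these microRNAs outside the lateral SVZ give the rise its context, as values across tissues and ages that were not tested here. In the dorsal SVZ miR-449a was at 5121 ± 1556 at P1 and 16978 ± 2745 at P6 (SD, n = 3 each). There miR-34c was at 224 ± 34.5 at P1 and 4631 ± 914 at P6. miR-449a was at 561 in the RMS library of P15 and at 70.3 ± 18.0 in the OB at P15. miR-34c was at 234 ± 21.2 in the OB at P15 and 357 ± 62.4 at P28 (SD, n = 3 each), below its level at P6 in either wall. In the RMS the 2 libraries of P28 differed widely, with miR-34c at 2666 and 582 and miR-449a at 1697 and 340. miR-34a had another order, with 2744 ± 530 in the OB at P15 and 5462 ± 990 at P28, both above the lateral SVZ at P6 (1685 ± 33.1).

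A second group of rises comprised microRNAs with low scores at P1. miR-375, known from pancreatic islets and neuroendocrine cells, had 30, 23 and 10 at P1 and 287, 282 and 244 at P6 (3.75 ± 0.57 or 13.5-fold, adjusted p = 8.69e-05). miR-592 had 0, 19 and 2 at P1 and 77, 66 and 36 at P6 (3.88 ± 0.70, adjusted p = 0.000464). The ages did not overlap in either, and both passed with any single lateral library left out. miR-383 had 213, 236 and 110 at P1 and 957, 1114 and 984 at P6 (2.52 ± 0.41, adjusted p = 0.000135).

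Htr2c, the gene of a serotonin receptor that is abundant in choroid plexus epithelium, hosts 5 of the tested microRNA genes in its introns. Of their 8 tested features 5 rose and none fell, with log2 fold changes of 1.84 to 4.10 and a median of 2.64. Over all features 14.4% were higher and the median was 0.42. Htr2c had the highest median among the 13 host genes that hold 2 or more microRNA genes. miR-764-5p had 32, 41 and 15 at P1 and 191, 235 and 174 at P6 (2.83 ± 0.63, adjusted p = 0.00338). miR-1264-3p had 18, 23 and 8 at P1 and 106, 140 and 72 at P6 (2.69 ± 0.66, adjusted p = 0.00715, and 0.0513 without lateral P1 replicate 3). In both the P6 libraries lay above every P1 library. The other 3 calls were miR-764-3p, pre-mir-764 and miR-448-5p, and the features that did not pass were miR-448-3p, miR-1298 and miR-1912*. miR-448-5p (2.58 ± 0.88, adjusted p = 0.0481) did not pass without lateral P1 replicate 3 (0.354), lateral P6 replicate 1 (0.142), replicate 2 (0.0973) or replicate 3 (0.0972).

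The choroid plexus and pigment epithelium microRNA miR-204 had 958, 1398 and 736 at P1 and 3975, 4111 and 3466 at P6, with every P6 library far above P1 (1.95 ± 0.25, adjusted p = 1.07e-05). miR-211, which shares its seed UCCCUUU, had 27, 65 and 36 at P1 and 72, 70 and 27 at P6 (0.36 ± 0.46, adjusted p = 0.655). miR-204 is not confined to the SVZ in these data, since the OB held 7209 ± 617 at P15 and 10395 ± 1272 at P28 (SD, n = 3 each).

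Many neuron-enriched microRNAs rose. Of 35 features 16 (45.7%) were higher and 2 (5.71%) lower, against 14.4% and 2.11% over all features. Their median was 1.25 against 0.42 over all features. It was 0.91 against 0.10 with TMM factors and 0.66 against -0.18 relative to the median feature. The number higher was 9 without lateral P6 replicate 2 and 11 to 15 without any other lateral library. miR-132 and miR-212, which lie side by side, are induced by neuronal activity and known for promoting dendrite growth. miR-132 had 380, 612 and 172 at P1 and 1339, 1840 and 1271 at P6 (2.09 ± 0.33, adjusted p = 0.000111). Its opposite arm miR-132* had 50, 116 and 49 at P1 and 368, 348 and 227 at P6 (2.21 ± 0.34, adjusted p = 8.71e-05). Every P6 library exceeded every P1 library in both arms. miR-212-3p, which carries the same seed as miR-132, rose by 1.91 ± 0.41 (adjusted p = 0.00281), and in all 5 of 6 features of this pair of genes were higher.

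miR-128, one of the abundant neuronal microRNAs, had 13110, 16839 and 6071 at P1 and 40281, 43681 and 43000 at P6 (1.94 ± 0.31, adjusted p = 0.00013). Its P6 libraries were nearly equal, while lateral P1 replicate 3 was the lowest of the P1 libraries, as it was for miR-132. miR-129-2-3p, another neuronal form, had 2873, 3581 and 2599 at P1 and 9763, 11158 and 9591 at P6, again without overlap (1.76 ± 0.20, adjusted p = 2.98e-06). Both passed with any single lateral library left out.

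Not every neuronal microRNA moved. miR-124, the microRNA most characteristic of neurons, had 153222, 268236 and 150347 at P1 and 161228, 67177 and 249522 at P6. Its P6 libraries included both the lowest and the second highest of the 6, and no difference could be called (-0.40 ± 0.38, adjusted p = 0.548). Its star arm miR-124* nevertheless fell, from 2191, 3855 and 2197 to 1173, 1703 and 1158, without overlap (2.00-fold lower, log2 SE 0.24, adjusted p = 0.00615). The other lower call of the list was the hairpin pre-mir-124-3 with 6656, 5505 and 4861 at P1 and 2075, 236 and 4895 at P6. Its libraries overlapped, and it did not pass without lateral P6 replicate 2 (adjusted p = 0.292), lateral P1 replicate 1 (0.105), replicate 2 (0.0598) or replicate 3 (0.0767). miR-137 (0.12 ± 0.22, adjusted p = 0.802) and miR-153 (-0.01 ± 0.26, adjusted p = 0.993) also did not pass.

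The miR-29 family, which rises as the brain matures and targets collagens and DNA methyltransferases, had 6 of 11 features higher and none lower (median 1.24). This was 54.5%, against 14.4% over all features. miR-29b had 1449, 1724 and 1542 at P1 and 3858, 4034 and 4317 at P6 (1.37 ± 0.20, adjusted p = 5.91e-05). miR-29c had 21290, 27803 and 20891 at P1 and 54909, 54794 and 53940 at P6 (1.24 ± 0.19, adjusted p = 0.000111). miR-29a rose by 1.07 ± 0.19 (adjusted p = 0.000329). All 3 matched forms with the seed AGCACCA were thus higher without overlap of the ages. Relative to the median feature the family had 2 calls, and miR-29c (0.64, adjusted p = 0.0986) and miR-29a (0.48, adjusted p = 0.2) did not pass.

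Other lists had shares of calls near the 14.4% of all features. In the miR-7 family miR-7b was the 1 call of 8 or 12.5% (1.48 ± 0.39, adjusted p = 0.012), which was lost without lateral P1 replicate 3 (0.0698) or lateral P6 replicate 2 (0.101), while 2 features passed without lateral P6 replicate 3. The clusters of miR-23, miR-27 and miR-24 had 2 calls of 13 or 15.4%. They were miR-24, with 11036, 16397 and 11948 at P1 and 26328, 24260 and 22008 at P6 (0.90 ± 0.19, adjusted p = 0.00207), and the rare miR-24-1*, at 0, 0 and 2 against 6, 7 and 11. The count was 1 without lateral P1 replicate 1, lateral P6 replicate 2 or lateral P6 replicate 3, where miR-24-1* was lost. miR-24 did not pass with TMM factors (0.55, adjusted p = 0.0688) or relative to the median feature (0.30, adjusted p = 0.408).

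The imprinted Dlk1-Dio3 cluster, transcribed from the maternal chromosome, had 19 of 107 features higher and none lower. This share of 17.8% stands beside 14.4% over all features, and the list's median was 0.83 against 0.42. With TMM factors 9.17% of all features were higher and 5.7% lower, and relative to the median feature 5.7% and 12.4%. The list's shares were smaller than each of these. The count was 7 of 107 with TMM factors, with 1 feature lower, and 4 relative to the median feature, with 3 lower. It was 11 without lateral P1 replicate 1, 29 without replicate 2, 4 without replicate 3, 10 without lateral P6 replicate 1 and 4 without lateral P6 replicate 2. miR-487b had 10088, 13854 and 6808 at P1 and 30279, 34224 and 23284 at P6 (1.55 ± 0.24, adjusted p = 0.000111). miR-666-3p had 1642, 962 and 1515 at P1 and 4594, 4650 and 3542 at P6 (1.66 ± 0.27, adjusted p = 0.000148). Neither overlapped between the ages, and both passed with any single lateral library left out.

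**Figure D3:**
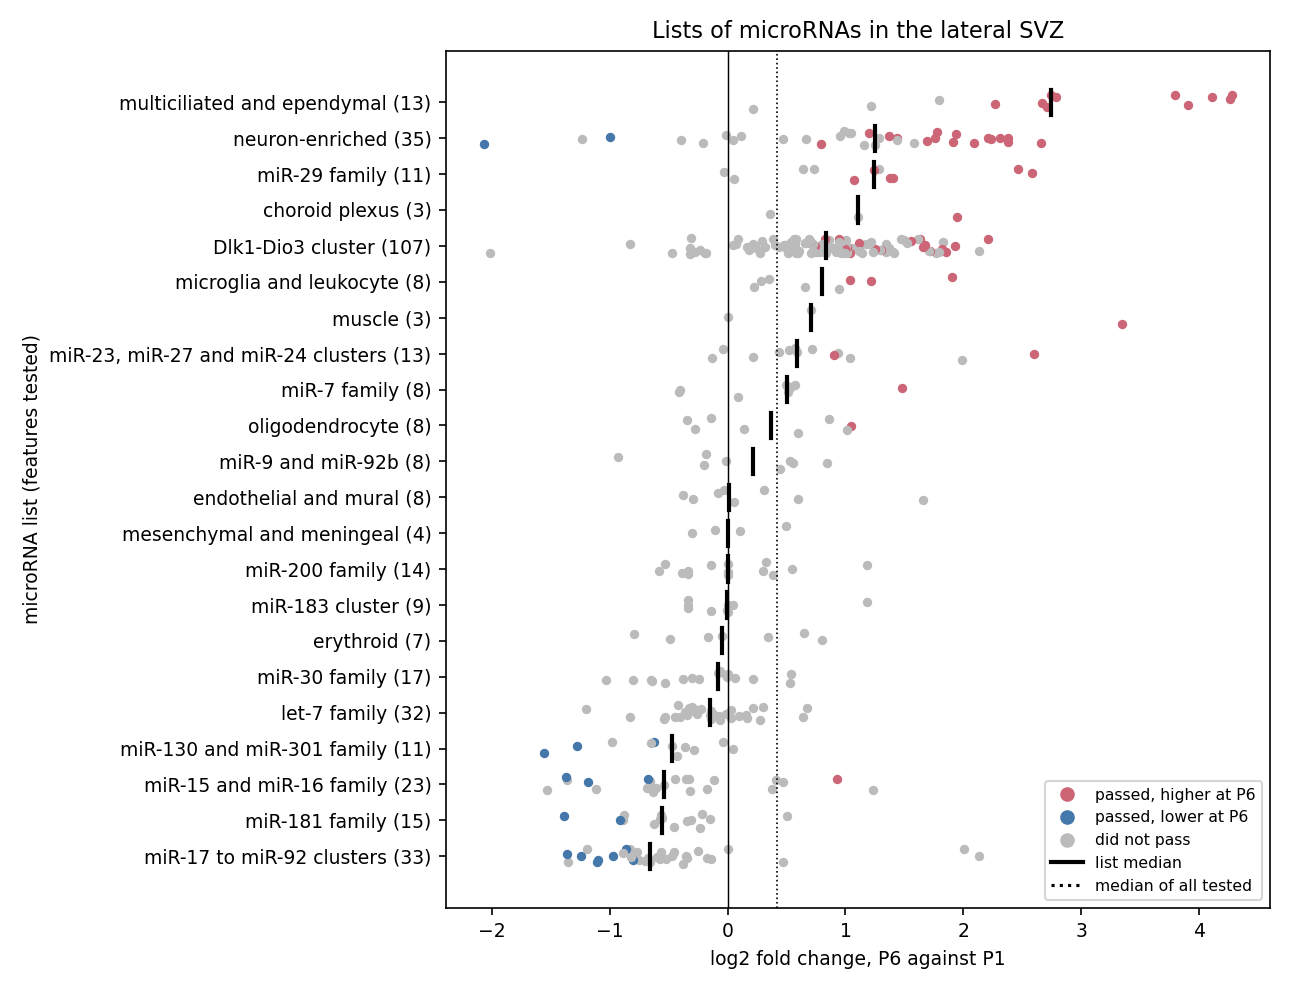
Log2 fold changes from P1 to P6 (horizontal) of the features of each microRNA list with at least 3 tested features, with the list's median as a bar and the median of all features (0.42) as a dotted line. The multiciliated list has the highest median (2.74) and the miR-17 to miR-92 clusters the lowest (-0.66). Relative to the median feature the median of all features is -0.18 in place of 0.42.

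Falls were concentrated in a few families, and the clearest was that of the miR-17 to miR-92 clusters, which are known for promoting the proliferation of progenitors. Of the 33 tested features of these 3 related clusters 7 were lower at P6 and none was higher (median -0.66). The lower share was 21.2%, against 2.11% over all features. The lower count was 10 with TMM factors and 17 relative to the median feature, where 5.7% and 12.4% of all features were lower. It was 5 to 7 with any single lateral library left out, with 2 features higher without lateral P1 replicate 2. The summed score of the list was 185545 to 253040 at P1 and 111610 to 115555 at P6, so that the P6 libraries lay close together and below every P1 library.

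miR-17 itself had 34177, 42539 and 56885 at P1 and 20130, 21099 and 19775 at P6. All P6 libraries were alike and under the lowest P1 library, a fall of 1.10 ± 0.25 or 2.14-fold (adjusted p = 0.00344). miR-20a, of the same transcript and seed, had 22525, 34075 and 31981 at P1 and 8077, 16683 and 18075 at P6 (-1.11 ± 0.28, adjusted p = 0.00993, and 0.0788 without lateral P6 replicate 1). miR-19b, also of this cluster, had 57973, 80369 and 62774 at P1 and 43772, 30216 and 36805 at P6 (-0.86 ± 0.24, adjusted p = 0.0154). Its call was lost without lateral P1 replicate 2 (0.0531) or lateral P6 replicate 2 (0.0973). miR-19a (-0.81 ± 0.25, adjusted p = 0.0314) passed in 1 of the 6 omissions of a lateral library, with an adjusted p of up to 0.126. miR-92a had 15154, 20497 and 24551 at P1 and 10901, 10236 and 9030 at P6 (-0.97 ± 0.26, adjusted p = 0.0149, but 0.0861 without lateral P1 replicate 3 and 0.0501 without lateral P6 replicate 3).

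The cluster of miR-106b, miR-93 and miR-25 lies in an intron of Mcm7, which codes for a subunit of the DNA replication helicase. All 9 of its tested features had negative log2 fold changes, from -1.36 to -0.25, and 2 passed. miR-25 had 6315, 6552 and 9565 at P1 and 3391, 2932 and 3003 at P6 (-1.24 ± 0.22 or 2.37-fold lower, adjusted p = 0.000447). miR-106b had 11352, 21258 and 13297 at P1 and 5324, 6497 and 5442 at P6 (-1.36 ± 0.33, adjusted p = 0.00715). The ages stood apart in both. miR-93 had 17067, 15058 and 27001 at P1 and 9192, 5855 and 7680 at P6, also without overlap, and did not pass (-1.36 ± 0.54, adjusted p = 0.0968). Of the 6 tested forms matched to the seed AAAGUGC, miR-17, miR-20a and miR-106b passed, and miR-93, miR-106a (-0.70) and miR-20b (-0.18) did not.

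**Figure D4:**
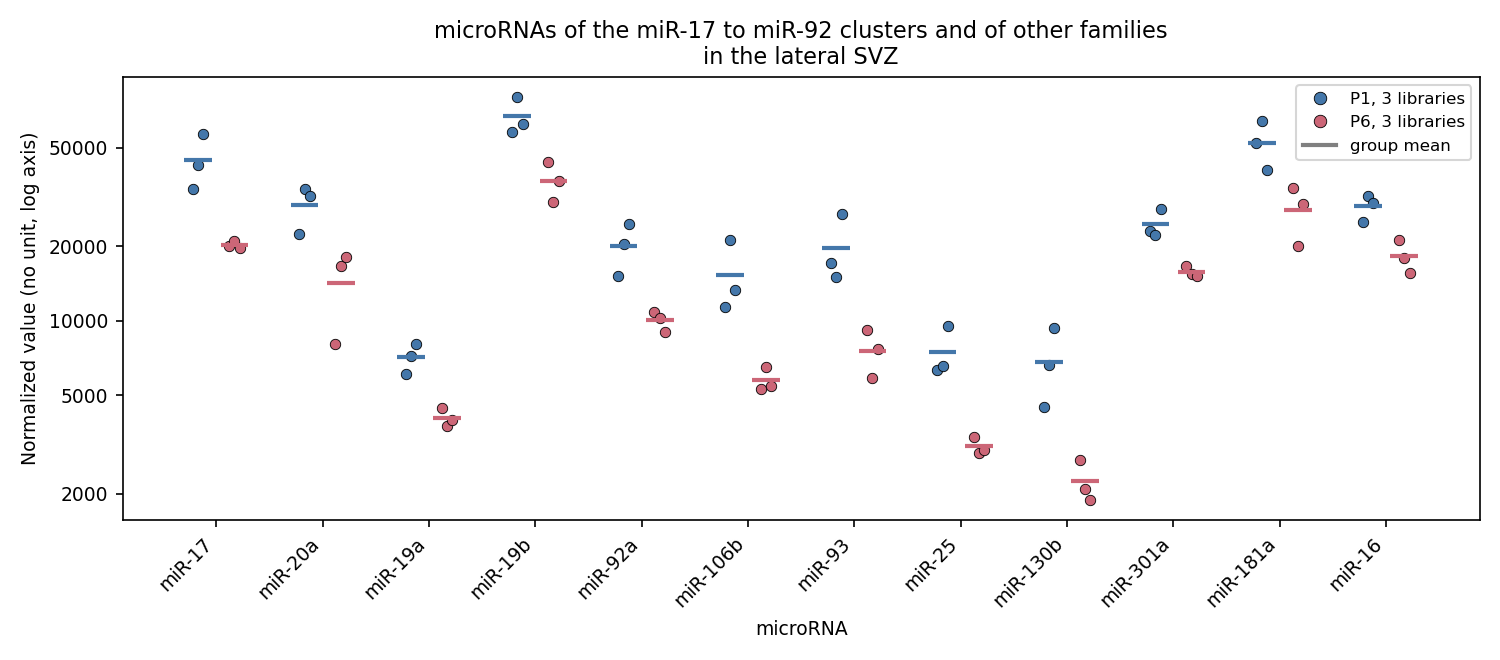
Scores (vertical, log axis) of 12 mature forms of the miR-17 to miR-92 clusters and of the miR-130, miR-181 and miR-16 families in the 3 lateral libraries of each age, with the group mean as a bar. Shown are the 11 mature forms other than star arms that passed as lower, and miR-93, which did not pass the test. In each form all P6 points lie below all P1 points, as in 6.57% of all features. Other forms of these families are not shown, among them miR-130a, whose ages overlapped.

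Among the 11 features of miR-130 and miR-301, 3 fell and none rose (median -0.47). The lower share was 27.3%, against 2.11% over all features. miR-130b had 4483, 6653 and 9372 at P1 and 2751, 2095 and 1897 at P6 (-1.56 ± 0.29 or 2.95-fold lower, adjusted p = 0.000702). Its star arm miR-130b* had 796, 972 and 818 at P1 and 419, 378 and 278 at P6 (-1.28 ± 0.29, adjusted p = 0.00368). Neither arm overlapped between the ages, and both passed with any single lateral library left out. The third call, miR-301a (-0.63 ± 0.18, adjusted p = 0.0219), was lost without lateral P1 replicate 3 (0.115), lateral P6 replicate 2 (0.0865) or lateral P6 replicate 3 (0.0642). The far more abundant miR-130a has the same seed and did not pass, with 118864, 132085 and 116634 at P1 and 103391, 160893 and 101568 at P6 (-0.04 ± 0.19, adjusted p = 0.929).

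The miR-181 family, known from lymphocyte and neural differentiation, had 2 of 15 features lower (median -0.55). This was 13.3%, against 2.11% over all features. miR-181a had 52182, 64421 and 40818 at P1 and 34295, 20088 and 29745 at P6 (-0.91 ± 0.21, adjusted p = 0.00493, and 0.0578 without lateral P6 replicate 2, where the family kept 1 call). miR-181a-1*, the opposite arm of 1 of its hairpins, had 6187, 12614 and 8371 at P1 and 3529, 3415 and 3031 at P6 (-1.39 ± 0.28, adjusted p = 0.0016). The P6 libraries were below every P1 library in both.

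The miR-15 and miR-16 family, which restrains the cell cycle through cyclins, had 3 of 23 features lower and 1 higher (median -0.54). miR-16 had 25020, 31976 and 30089 at P1 and 21143, 17921 and 15664 at P6, without overlap (-0.67 ± 0.20, adjusted p = 0.0208). The other falls were the star arms miR-15a* (-1.19 ± 0.36) and miR-16-2* (-1.37 ± 0.46), and the rise was miR-497 (0.93 ± 0.25). None of the 4 calls held in every omission, and the number of falls was 5 without lateral P1 replicate 1, 0 without lateral P1 replicate 2, lateral P1 replicate 3 or lateral P6 replicate 2, and 1 without lateral P6 replicate 3. miR-497 did not pass with TMM factors (adjusted p = 0.0679) or relative to the median feature (0.381).

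Levels of these microRNAs elsewhere are given as values and were not tested. miR-17 was at 44534 ± 11485 in the lateral SVZ at P1, 20335 ± 685 at P6, 6364 ± 418 in the OB at P15 and 4549 ± 1322 at P28 (SD, n = 3 each). miR-25 stood at 3109 ± 247 in the lateral SVZ at P6, 7346 in the RMS library of P15 and 1811 ± 138 in the OB at P28. The neuronal miR-132 was higher in the bulb, with 1483 ± 311 in the lateral SVZ at P6 and 11598 ± 132 in the OB at P28 (SD, n = 3 each).

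Tested forms made 193 pairs of arms by their names, and 133 of these pairs had the same sign. miR-219-3p was paired both with miR-219-5p and with miR-219-3p*. A partner with a log2 fold change of exactly 0 was not counted as having the same sign. At least 1 arm passed in 55 pairs. In 14 both passed with the same sign, in none with opposite signs, and in 37 only 1 passed and the other had its sign. In the other 4 pairs the arm that passed and its partner had opposite signs. They were miR-17 with miR-17* (0.00), miR-19a with miR-19a* (2.13), miR-26b (-0.25) with miR-26b*, and miR-7b with miR-7b* (-0.41). The partner that did not pass had an adjusted p of 0.0795 or more in each, and the difference between the arms was not tested.

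Some lists had no call. let-7, a family tied to differentiation, had 0 of 32 features passing in limma's test, 2 with an unadjusted p under 0.05 and a median of -0.15. Relative to the median feature 13 of them were lower, and with TMM factors 4, where 12.4% and 5.7% of all features were lower. let-7b had 30665, 51213 and 34937 at P1 and 32267, 32200 and 39571 at P6, with overlapping ages (-0.14 ± 0.20, adjusted p = 0.707). The progenitor microRNAs miR-9 and miR-92b had 0 of 8 features passing in limma's test and 2 with an unadjusted p under 0.05, with 1 lower relative to the median feature. miR-9 had 72324, 109186 and 96413 at P1 and 125075, 124814 and 122869 at P6, without overlap, and did not pass the test (0.44 ± 0.32, adjusted p = 0.403). The miR-30 family had 0 of 17 passing in limma's test and 3 with an unadjusted p under 0.05, with 6 lower relative to the median feature and 2 with TMM factors. The miR-200 family (0 of 14) and the miR-183 cluster (0 of 9), both known from epithelia and sensory or olfactory cells, had summed scores of at most 142 and, in limma's test, no feature with an unadjusted p under 0.05.

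The change with age was set against that of the dorsal SVZ, where 161 features (20%) were higher and 7 (0.867%) lower at P6. Those libraries are separate from the lateral ones, but each feature's error was estimated over all libraries. Some numbers in the submitters' library names occur in both walls at the same age. Whether they name the same animals is not stated, and the walls were treated as unpaired. Most lateral changes had the dorsal sign: 110 of the 116 rises were positive in the dorsal wall, and 16 of the 17 falls were negative. Fewer of them passed the test of age in the dorsal wall itself. There 76 of the 116 rises were also called higher, but only 4 of the 17 falls were also called lower. Over all 807 tested features the sign was the same in both walls for 590, and the dorsal median was 0.54. The test of the difference between the walls passed for 2 of 807 features (0.248%), while 71 had an unadjusted p under 0.05. In RNA type makeup 2 dorsal libraries stood apart, replicate 1 of P1 (16.4% tRNA) and replicate 2 of P6 (9.42% snoRNA), so results on the walls are also given without them.

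In the lateral SVZ the scores of miR-708 were 7059, 6875 and 7291 at P1 and 12395, 12786 and 10709 at P6, with every P6 library higher. In the dorsal wall it had 8217, 5943 and 7644 at P1 and 2814, 2017 and 2969 at P6, with every P6 library lower. The lateral change exceeded the dorsal one by 2.24 ± 0.28 (adjusted p = 4.61e-05), and by 1.98 (adjusted p = 0.000833) without the 2 unusual dorsal libraries. The lateral rise alone was 0.75 ± 0.20 (adjusted p = 0.012). It did not pass without lateral P6 replicate 2 (0.0623), with TMM factors (0.40, adjusted p = 0.227) or relative to the median feature (0.16, adjusted p = 0.766).

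miR-219-3p, an oligodendrocyte microRNA, had lateral scores of 61, 89 and 44 at P1 and of 91, 163 and 136 at P6 (1.01 ± 0.37, adjusted p = 0.0688). The dorsal libraries went from 113, 280 and 83 to 1900, 1532 and 1882. The lateral change was smaller by 2.65 ± 0.53 on the log2 scale (adjusted p = 0.0195). That call was lost in the fit to the 12 SVZ libraries (adjusted p = 0.256) and without a mean-variance trend (0.0615). It was also lost without the 2 unusual dorsal libraries (adjusted p = 0.0574), without dorsal P1 replicate 1 (0.0587), dorsal P1 replicate 3 (0.0625), dorsal P6 replicate 3 (0.0731), lateral P1 replicate 1 (0.0528), lateral P1 replicate 2 (0.0518) or lateral P6 replicate 1 (0.0873).

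The next 3 features by p did not pass. They were miR-338-5p, which is from the same hairpin as miR-338-3p (-2.03 ± 0.46, adjusted p = 0.0559), miR-344 (1.49 ± 0.36, adjusted p = 0.0995) and miR-873 (-1.91 ± 0.49, adjusted p = 0.116). Within the lateral wall miR-344 rose from 5769, 6295 and 4223 to 11181, 12370 and 10984 (1.10 ± 0.26, adjusted p = 0.0049), though not relative to the median feature (0.50, adjusted p = 0.238). Its dorsal scores were 1535, 1719 and 2229 at P1 and 1876, 1641 and 857 at P6. For the falling microRNAs the test of the walls did not pass either, and the dorsal fold changes of miR-17 (-0.47), miR-25 (-0.49) and miR-130b (-1.46) are given as values.

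**Figure D5:**
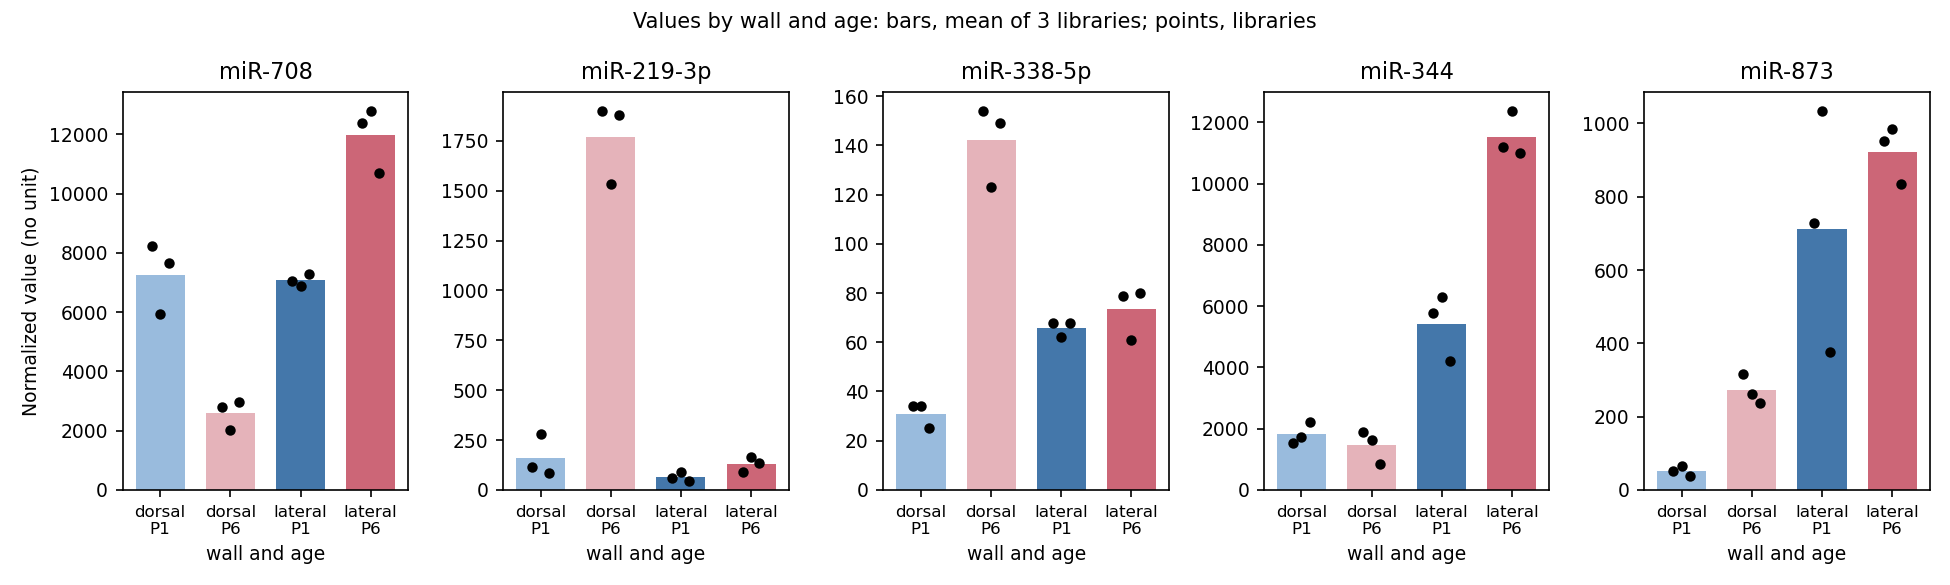
Scores (vertical, linear axis from 0 in each panel) of the 5 features with the smallest p for a difference between the walls, in the dorsal and lateral SVZ at P1 and P6, with bars for the mean of 3 libraries and points for the libraries. miR-708 is higher at P6 in the lateral wall and lower at P6 in the dorsal wall, and miR-219-3p reaches 1532 to 1900 in dorsal P6 libraries against at most 163 in lateral ones.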

How the data were processed

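Small RNA libraries were prepared from total RNA (miRNeasy kit, gel-purified inserts, SOLiD 5500XL), per the labels' protocols. The authors deposited a score per feature and library, which is a read count after normalization and rounding. Bowtie, DESeq and the mm9 build are named in the submitters' processing notes. Their roles are not given in the sources used here, and read depth is unknown, so count models could not be fitted and no counting interval is given.

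Features of type miRNA were analysed as log2(score + 1) in limma 3.58.1 (R 4.3.3), with a mean-variance trend and a mean for each of the 8 groups over 21 libraries (13 residual degrees of freedom), two-sided. The main contrast was lateral P6 against P1, and the second was the same change in the lateral minus the dorsal SVZ. The fit was also run on simulated data, drawn independently and with the same dispersion for every feature. The deposited scores may differ from that setting, and the outcome is not given here. TMM factors (trimmed means of M values) served as a scaling alternative. Neighbours and host genes were read from the GRCm38 annotation, without coordinates, since the builds differ.

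Named microRNAs were the 12 largest passing changes in each direction with a mean of at least 50 and no overlap, up to 3 members of each of 23 lists, miR-34 and miR-449, the 5 most abundant forms and the 5 smallest p-values between the walls. Others named complete seed groups, clusters, hairpins or small counts and were chosen after their values were seen. The members and lists were chosen with earlier results of these data known.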

Additional observations from a re-analysis of the deposited data

Results flagged for a closer look

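The change of miR-708 from P1 to P6 differed between the walls by the test of the difference itself (lateral minus dorsal 2.24 ± 0.28, adjusted p = 4.61e-05), and it passed in all 24 alternatives (adjusted p 8.42e-06 to 0.00616). The change of miR-219-3p differed in the opposite direction (-2.65 ± 0.53, adjusted p = 0.0195) and passed in 15 of 24 alternatives (adjusted p 0.000334 to 0.256).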

How the results depend on the processing

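Of the 116 rises and 17 falls, 29 and 5 passed in all 18 alternatives. The 5 falls were miR-130b, miR-130b*, miR-181a-1*, miR-25 and miR-17. No call changed sign, and the 17 falls all passed with TMM factors, relative to the median feature and relative to the summed microRNA score. The number of rises was 74 with TMM factors, 46 relative to the median feature, 64 in a fit to the 12 SVZ libraries and 68 in a fit to the 6 lateral libraries, and 52 to 150 with 1 library left out. The number of falls was 46 with TMM factors, 100 relative to the median feature, 27 relative to the summed microRNA score, 9 in the fit to the 6 lateral libraries and 11 without a mean-variance trend, and 9 to 19 with 1 library left out. The cause of these shifts was not tested.

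For the difference between the walls, 1 feature had a higher lateral change. It was 3 with TMM factors, 2 relative to the median feature, 2 relative to the summed score and 2 without a trend, and 1 to 2 with 1 library left out. The 1 feature with a lower lateral change became 2 without a filter, 2 with a mean of at least 50, 8 with TMM factors, 3 relative to the median feature, 2 relative to the summed score, 2 with mature forms only, 0 in the fit to the 12 SVZ libraries and 0 without the 2 unusual dorsal libraries, which was chosen after seeing the data. It was 0 to 2 with 1 library left out. A fit to the 6 lateral libraries gives no value here.

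Lateral libraries of P1 and P6 with the same replicate number did not deviate together (correlations of -0.03, 0.01 and -0.06). The numbers were therefore not taken to pair the ages. Only lateral libraries of different ages were compared in this way, and the block below uses the same replicate numbers. Neither can show whether dorsal and lateral libraries are paired, which was not tested. With a replicate block 110 features rose and 16 fell, and the walls had 1 and 1 calls. The unknown depth leaves the precision of low scores unknown, and a score of 0 cannot tell absence from a low level that was missed.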
